A study of Mus musculus with 6 samples.

Results

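Transcription factors of the corticotrope lineage were examined in AtT-20, a corticotrope tumour line of the mouse pituitary that makes the hormone precursor Pomc and keeps its products in secretory granules. The set held 8 genes, Tbx19, Neurod1, Neurod4, Pitx1, Nr3c1, Nr4a1, Insm1 and Isl1, taken from the 19057 genes named on the array. They were represented by every probe that the platform annotation assigns to them, which gave 9 of the 45281 probes, 2 for Neurod4 and 1 for each other gene. Of the 9 probes, 5 were above background on all 6 arrays and were tested, for Tbx19, Neurod1, Neurod4, Nr3c1 and Insm1. The other 4 probes, for Pitx1, Nr4a1, Isl1 and a second site of Neurod4, were above background on 0 arrays.

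The cells were stable transfectants with rat PAM-1, a peptide-amidating enzyme of granules, under control of a doxycycline-inducible promoter. Doxycycline arrays came from 3 clones (14, 6_1 and 6_2) after 48 h in medium with the drug, and control arrays from the same 3 clones in medium without it, 1 bead array (Illumina MouseWG-6 v2.0) per clone and medium. All arrays thus carry the transgene. No drug-treated cells lacking it were analysed here, and drug and induced PAM-1 cannot be told apart. The labels give the drug at 4 µg/ml in one field and 4 mg/ml in another, and they do not say whether clones 6_1 and 6_2 have a common origin or whether a clone's cultures were grown independently, so p-values measure the spread between these cultures.

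In corticotropes Tbx19, also called Tpit, acts with the homeodomain factor Pitx1 on the Pomc promoter. Neurod1 joins an E protein partner and binds an E-box there. Nuclear receptors then set Pomc output: Nr4a1 (Nur77) carries the activating signal of corticotropin-releasing hormone, and Nr3c1, the glucocorticoid receptor, carries the negative feedback of adrenal steroids. Insm1 is a zinc finger factor of endocrine and neuronal differentiation that recruits histone-modifying enzymes, Neurod4 is a relative of Neurod1, and Isl1 is a LIM-homeodomain factor of the early pituitary.

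To show the DNA at the starts of these genes, promoter windows of Tbx19, Neurod1 and Neurod4, of the detected members, are given. With them stands the window of Pomc, on whose promoter Tbx19 and Neurod1 act. Windows were examined here for 5 of the 8 members. Each is on GRCm38.p6, runs from 250 bases before to 50 bases after an annotated start, and is written 5′ to 3′ on the gene's strand with capitals for matches to the E-box CANNTG, the motif of the Neurod family. Coordinates are chr1:165160724-165161023 (minus strand) for Tbx19, chr2:79456587-79456886 (minus strand) for Neurod1, chr10:130280089-130280388 (minus strand) for the downstream of the starts of Neurod4 and chr12:3954695-3954994 (plus strand) for Pomc.
Tbx19: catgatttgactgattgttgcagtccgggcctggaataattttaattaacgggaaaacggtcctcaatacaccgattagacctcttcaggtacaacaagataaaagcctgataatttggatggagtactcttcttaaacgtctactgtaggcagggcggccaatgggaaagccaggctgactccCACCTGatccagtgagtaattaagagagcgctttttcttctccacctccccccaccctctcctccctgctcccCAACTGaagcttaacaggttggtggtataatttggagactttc
Neurod1: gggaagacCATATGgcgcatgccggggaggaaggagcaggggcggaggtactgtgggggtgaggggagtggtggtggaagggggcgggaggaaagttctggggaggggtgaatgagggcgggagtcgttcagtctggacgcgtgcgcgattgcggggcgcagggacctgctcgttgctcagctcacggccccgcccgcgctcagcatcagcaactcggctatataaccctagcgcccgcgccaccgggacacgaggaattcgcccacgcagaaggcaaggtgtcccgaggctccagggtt
Neurod4: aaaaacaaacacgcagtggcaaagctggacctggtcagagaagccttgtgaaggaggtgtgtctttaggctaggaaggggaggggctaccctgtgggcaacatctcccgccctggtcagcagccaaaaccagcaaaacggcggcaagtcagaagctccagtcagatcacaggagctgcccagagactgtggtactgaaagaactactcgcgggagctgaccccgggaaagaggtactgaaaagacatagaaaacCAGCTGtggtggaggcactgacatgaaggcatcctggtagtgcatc
Pomc: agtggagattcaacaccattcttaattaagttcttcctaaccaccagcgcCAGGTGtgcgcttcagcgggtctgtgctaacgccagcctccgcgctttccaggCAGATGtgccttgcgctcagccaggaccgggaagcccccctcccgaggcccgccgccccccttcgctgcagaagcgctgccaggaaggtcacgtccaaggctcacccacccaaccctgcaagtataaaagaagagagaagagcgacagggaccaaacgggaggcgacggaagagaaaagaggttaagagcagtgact

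The Tbx19 window held an E-box 66 bases before the start and another 7 bases after it, and the Pomc window held E-boxes 200 and 147 bases before the start. Neurod1 had 1 match, 242 bases before its start, and this Neurod4 window had 1, 4 bases after the start. The upstream Neurod4 window, which overlaps it, had 0. An E-box is a common string, present on either strand in 72.3% of all 32851 windows of 300 bases. The other motifs searched on both strands were the Pitx motif TAATCC, the Nr4a motif AAAGGTCA, the T-box half-site TCACACC and the glucocorticoid half-site AGAACA, found in 7.06%, 1.51%, 3.98% and 19.0% of windows. None of these 4 was matched in the printed windows. The Isl1 window, examined but not printed, held TAATCC 177 bases and AGAACA 107 bases before its start, and an E-box at 103. The Nr4a1 window, not printed either, had no match. These are letter matches in a short window, and the arrays carry no measurement of binding. Bases further upstream were not searched, so the lack of these 4 motifs holds for the printed windows only. Whether either Pomc match is the E-box that Neurod1 binds was not tested.

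Across the arrays 35.8% to 37.9% of probes were above background, meaning a detection p under 0.01. Values below are normalised intensities on the log2 scale, and the dimmest probe called above background read 5.97 to 6.22, depending on the array. On the first principal component the clone 6_1 control lay away from all others, at 56.5 where the other 5 ranged from -33.7 to 18.7, so each member is also given without that clone. Corticotrope markers matched the label, with 5 of 6 above background on at least 3 arrays (Pomc, Tbx19, Crhr1, Neurod1 and Pcsk1) and the vasopressin receptor Avpr1b on 0. Of 18 markers of other pituitary cells, fibroblasts and blood cells, 16 were above background on 0 arrays, the glycoprotein hormone subunit Cga on 1 and the progenitor factor Sox2 on 3.

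Tbx19, the factor that defines the lineage, gave strong signal in both media and differed little between them. Its probe (ILMN_2647782) read 12.44, 12.95 and 12.71 in doxycycline medium for clones 14, 6_1 and 6_2, and 12.48, 12.62 and 12.50 in control medium. The groups overlapped, and clones 6_1 and 6_2 were higher with the drug while clone 14 was level to within 0.04. The means were 12.70 ± 0.25 with doxycycline and 12.54 ± 0.08 in control medium (SD, n = 3 arrays each). The difference of 0.17 (SE 0.17) missed the threshold, with an adjusted p of 0.580 (limma), and its 95% interval ran from -0.22 to 0.55, or from 0.858-fold to 1.47-fold. Without clone 6_1 it was 0.09.

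Neurod1, the E-box factor of corticotropes, was well above background on every array at moderate signal. Its probe (ILMN_1228141) read 8.51, 8.31 and 8.63 with doxycycline in clones 14, 6_1 and 6_2, and 8.52, 8.70 and 8.80 in control medium. The groups overlapped, although each clone was at or below its own control. The means were 8.48 ± 0.17 with doxycycline and 8.68 ± 0.14 in control medium (SD, n = 3 arrays each). They differed by -0.19 (SE 0.17, limma, adjusted p = 0.518), with a 95% interval of -0.58 to 0.19. Without clone 6_1 it was -0.09.

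Neurod4, the relative of Neurod1, had the largest difference of the tested members. Its brighter probe (ILMN_2977633) read 6.92, 7.02 and 6.99 with doxycycline in clones 14, 6_1 and 6_2, and 7.11, 8.08 and 7.89 in control medium. All 3 doxycycline values lay close together and below every control value, and the clones differed in their control level. Clone 14 was the lowest of the control arrays and close to the doxycycline level, while clones 6_1 and 6_2 were higher. The means were 6.98 ± 0.05 with doxycycline and 7.69 ± 0.51 in control medium (SD, n = 3 arrays each).

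The Neurod4 difference was -0.72 (SE 0.21), or 0.609-fold, with a 95% interval of -1.18 to -0.25 on the log2 scale. Its unadjusted p was 0.00707, and it did not pass over all tested probes (limma, adjusted p = 0.119). By clone it came to -0.19 (14), -1.05 (6_1) and -0.90 (6_2). Leaving out clone 14 took the estimate to -0.98 and past the threshold (limma, adjusted p = 0.0275), in a fit where limma's prior degrees of freedom became infinite and all probes received a common variance. Without clone 6_1 the difference was -0.55 (SE 0.19) and without clone 6_2 it was -0.62 (SE 0.30). The doxycycline values lie within about 1 log2 unit of the lowest values above background, where the offset of 16 added in normalisation shrinks differences.

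Insm1, the endocrine zinc finger factor, gave bright signal on all arrays and was lower with doxycycline in each clone. Its probe (ILMN_2859558) read 12.77, 12.62 and 12.30 with doxycycline in clones 14, 6_1 and 6_2, and 13.06, 12.85 and 12.98 in control medium. Every doxycycline array lay below every control array, with the widest gap in clone 6_2. The means were 12.56 ± 0.24 with doxycycline and 12.96 ± 0.11 in control medium (SD, n = 3 arrays each). The difference of -0.40 (SE 0.18), or 0.756-fold, had an unadjusted p of 0.0482 and an adjusted p of 0.222 (limma).

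The 95% interval of the Insm1 difference reached from -0.80 to -0.00 (its upper bound is -0.004). The clone differences were -0.29, -0.23 and -0.69, and without clone 6_1 the difference was -0.49. Scanner signals of this probe, before normalisation, were 5072 to 9954.

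Nr3c1, the glucocorticoid receptor, lay near background on all but 1 array. Its probe (ILMN_2740568) read 6.60, 6.58 and 6.55 with doxycycline in clones 14, 6_1 and 6_2, and 6.63, 7.79 and 6.64 in control medium. In all, 5 of the 6 values fell between 6.55 and 6.64, and the remaining value was the control array of clone 6_1. The groups did not overlap, although in clones 14 and 6_2 the media were within 0.08 of each other. The means were 6.58 ± 0.02 with doxycycline and 7.02 ± 0.67 in control medium (SD, n = 3 arrays each).

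The Nr3c1 difference was -0.44 (SE 0.25, limma, adjusted p = 0.308), built from clone values of -0.03 (14), -1.22 (6_1) and -0.08 (6_2). Without clone 6_1 it was -0.06 (SE 0.14). That array held the highest of the 6 values for 31% of all tested probes, and for Nr3c1 and Neurod4 among the 5 tested members.

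**Figure D1:**
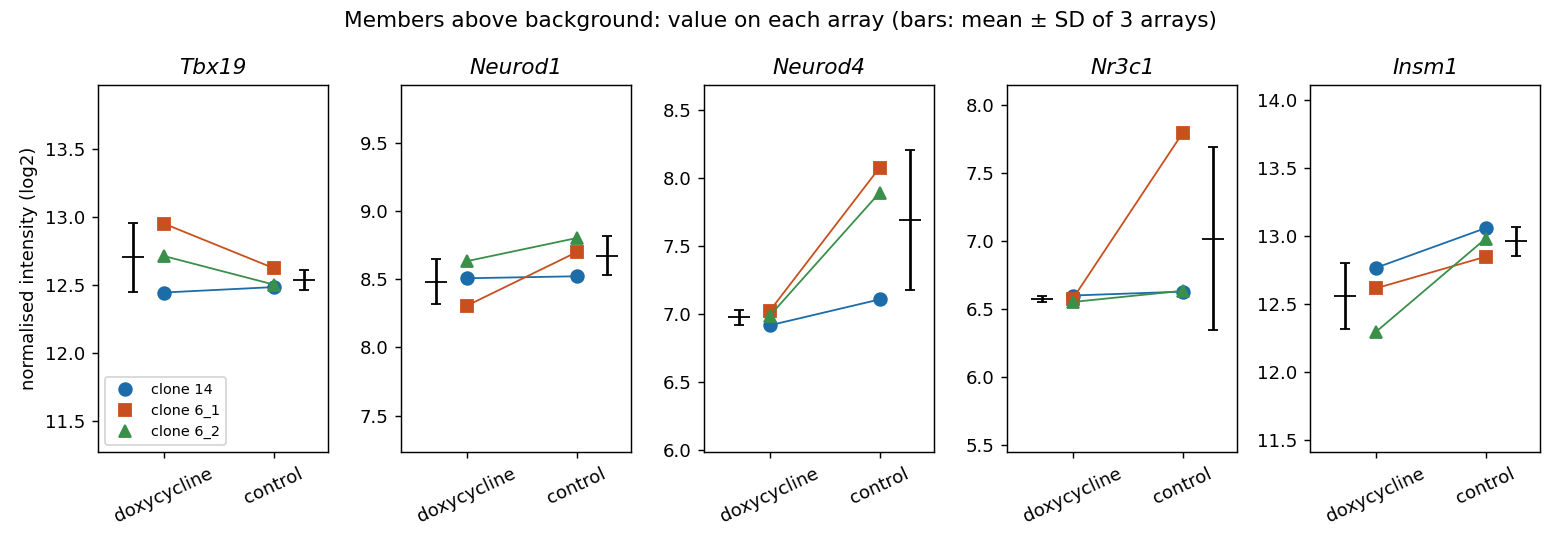
Normalised log2 intensity of the 5 tested members on each array, with doxycycline arrays on the left and control arrays on the right of each panel; lines join the arrays of a clone and bars give the mean ± SD of 3 arrays. All panels span the same number of log2 units. Neurod4, Nr3c1 and Insm1 have every doxycycline value below every control value. For Nr3c1 the highest doxycycline value is 6.60 and the lowest control value 6.63, both of clone 14. Its difference in means comes mostly from the control array of clone 6_1 at 7.79.

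The remaining 4 probes gave no usable level. Pitx1, the homeodomain partner of Tbx19, read 5.18 to 5.57 with doxycycline and 4.78 to 5.62 in control medium on its probe (ILMN_2656380). Its detection p ran from 0.0374 to 0.521, so it was not well above background on any array. Of the undetected probes it came nearest to the limit, on the control array of clone 6_2.

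Nr4a1, the orphan receptor of the hormone response, read 4.64 to 4.80 with doxycycline and 4.56 to 4.79 in control medium on its probe (ILMN_2701881), with detection p of 0.502 to 0.947. Isl1, the LIM-homeodomain factor, read 4.72 to 5.19 with doxycycline and 4.92 to 5.26 in control medium on its probe (ILMN_2727472), with detection p of 0.103 to 0.639. The second Neurod4 probe (ILMN_2766939) read 4.63 to 4.73 with doxycycline and 4.55 to 4.84 in control medium, with detection p of 0.418 to 0.955. Both media gave overlapping values for each of these probes.

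The 2 Neurod4 probes are annotated to the same RefSeq transcript, and 1 was above background on 6 arrays and the other on 0. A probe at background gives only an upper bound on its own signal, and Pitx1, Nr4a1 and Isl1 had 1 probe each. No change with doxycycline is given for them.

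**Figure D2:**
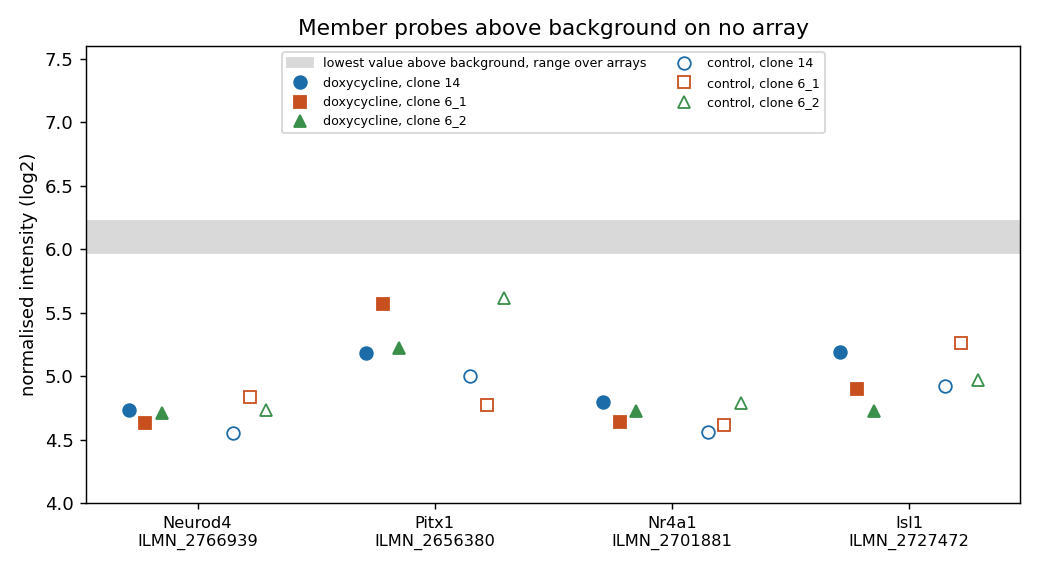
Normalised log2 intensity of the 4 member probes that were above background on no array, filled symbols for doxycycline arrays and open symbols for control arrays. The grey band marks the range over arrays of the lowest value above background, 5.97 to 6.22, and all points lie under it.

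Set together, 0 of the 5 tested members passed an adjusted p of 0.05 in the comparison of doxycycline with control medium (limma), where 0.314% of all tested probes passed. At an unadjusted p under 0.05 there were 2 members, Neurod4 and Insm1, where 22.3% of all tested probes were at that level. Of the 5, 4 were lower with doxycycline in all 3 clones, namely Neurod1, Neurod4, Nr3c1 and Insm1, a pattern held by 24.7% of tested probes. Among them 3, Neurod4, Nr3c1 and Insm1, had every doxycycline array below every control array, as did 12.5% of tested probes. The median change of the 5 was -0.40, against -0.01 over all tested probes, of which 51.7% were lower. With 5 genes, and with the control array of clone 6_1 shared by all of them, these counts are a description.

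**Figure D3:**
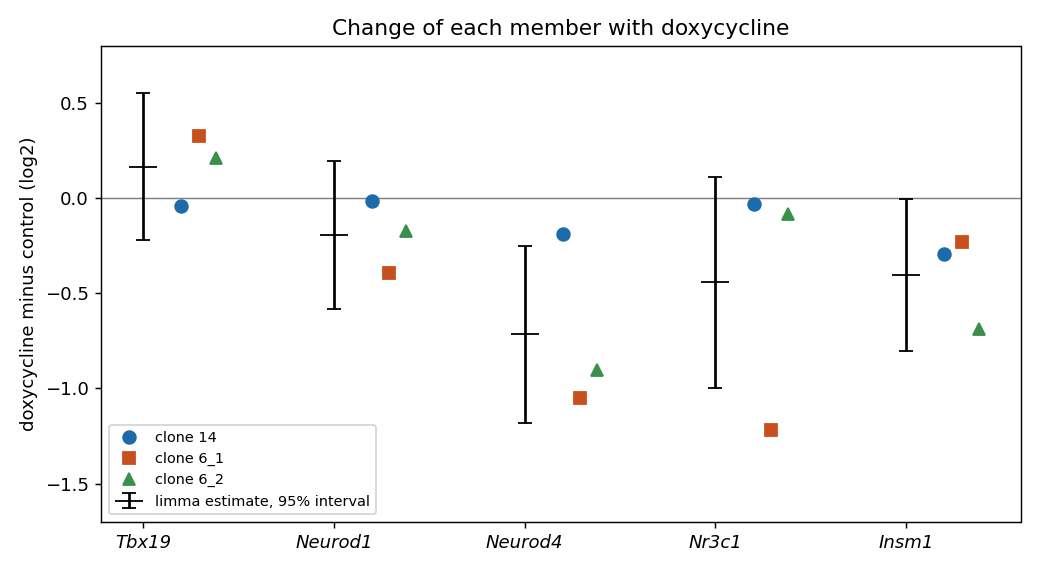
Doxycycline minus control on the log2 scale for the 5 tested members, with the limma estimate and its 95% interval in black and the difference of each clone in colour. The intervals of Tbx19, Neurod1 and Nr3c1 include 0, that of Insm1 ends at -0.004, and that of Neurod4 runs from -1.18 to -0.25 before any adjustment.

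The clones were also compared with each other over both media, to see whether the lineage factors marked one of them. In the contrast of clone 6_1 with clone 14, 0 of the 5 members passed and 0.136% of all tested probes did. In that of clone 6_2 with clone 14 it was 0 of 5, with 0.142% of all probes, and in that of clone 6_2 with clone 6_1 it was 0 of 5, with 0% (limma, with 452 probes at an unadjusted p under 0.05 and 0 of the 5 members). Neurod4 averaged 7.55 in clone 6_1 and 7.01 in clone 14, a difference of 0.54 (SE 0.25, limma, adjusted p = 0.345). Nr3c1 averaged 7.19 in clone 6_1 and 6.62 in clone 14, a difference of 0.57 (SE 0.30, limma, adjusted p = 0.384).

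Tbx19 averaged 12.79 in clone 6_1 and 12.46 in clone 14, 0.32 apart (SE 0.21, limma, adjusted p = 0.470). Neurod1 and Insm1 differed by at most 0.27 between any clones, with adjusted p of 0.699 or more (limma). Each clone had 1 array per medium, so whether the response to doxycycline differs between clones could not be tested.

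Partners of these factors were examined through a list of 36 genes that work with them or on the Pomc promoter. Probes were found for 31 genes, 22 were tested, and 0 passed in either direction (limma), where 0.314% of all tested probes passed. At an unadjusted p under 0.05 there were 6 of the 22, where 22.3% of all tested probes were. Of the 22, 15 were lower with doxycycline and 7 higher, where 51.7% of all tested probes were lower. The median was -0.36, and by clone the medians were -0.08 (14), -0.63 (6_1) and -0.16 (6_2). Fos, part of the AP-1 factor that acts on Pomc, read 9.14, 10.69 and 10.98 with doxycycline in clones 14, 6_1 and 6_2, and 9.89, 12.57 and 12.29 in control medium. Each clone was lower with the drug, and the groups overlapped because clone 14 was low in both media.

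The Fos difference was -1.31 (SE 0.22, limma, adjusted p = 0.0574). Over the 13 alternatives its adjusted p lay between 2.25e-05 and 0.453, and it passed in 7 of them, among them the fits without clone 14 (-1.59) and without clone 6_2 (-1.31, adjusted p = 0.00284). Without clone 6_1 the Fos difference was -1.03 (adjusted p = 0.0596). As for Neurod4, the fits without clone 14 or clone 6_2 had infinite prior degrees of freedom, which holds for every such value below. Tcf4, an E protein that pairs with Neurod factors, read 12.19, 12.81 and 12.90 with doxycycline in clones 14, 6_1 and 6_2, and 13.00, 13.55 and 13.38 in control medium. All doxycycline values lay below all control values, at a difference of -0.68 (SE 0.17, limma, adjusted p = 0.0999). Egr1, an immediate early factor, differed by -0.84 (SE 0.25, limma, adjusted p = 0.122). It came to -1.15 without clone 14 (adjusted p = 0.00613) and to -0.48 without clone 6_1.

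Other cofactors of the members gave smaller differences and were chosen for mention after their values were seen. The enzymes that Insm1 recruits to chromatin read -0.47 (SE 0.17) for the demethylase Kdm1a and -0.52 (SE 0.17) for the deacetylase Hdac2, and their scaffold Rcor1 read -0.36 (SE 0.20) (limma, adjusted p from 0.146 to 0.312). Without clone 6_1 Rcor1 came to -0.12. In the Nr4a family, Nr4a2 was above background on all 6 arrays and read -0.22 (SE 0.19), while Nr4a3, like Nr4a1, was above background on 0. The Pitx relative Pitx3 and the mineralocorticoid receptor Nr3c2 were above background on 0 arrays too.

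Factors of other pituitary lineages were mostly at background. Of 16 listed genes 13 had a probe and 2 were tested, Gata2 on 6 arrays and Sox2 on 3. Of the 2, 0 passed (limma, with 0 at an unadjusted p under 0.05), where 0.314% and 22.3% of all tested probes did. Gata2, a factor of thyrotropes and gonadotropes, read -0.03 (SE 0.20, limma, adjusted p = 0.948) and Sox2 read 0.06 (SE 0.23, limma, adjusted p = 0.892). Without clone 6_1 they came to -0.27 for Gata2 and -0.15 for Sox2. The pan-pituitary LIM factors Lhx3 and Lhx4, with 5 and 2 probes, were above background on 0 arrays.

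The list of other neuroendocrine and neuronal factors had 8 tested genes of 18, at a median of -0.42 against -0.01 over all tested probes. All 8 were lower with doxycycline, as were 51.7% of all tested probes, and 3 of the 8 were lower in every clone, as were 24.7%. None of the 8 passed (limma), where 0.314% of all tested probes did. An unadjusted p under 0.05 was found for 4, and for 22.3% of all tested probes. St18, a zinc finger factor of the Myt family, read 8.12, 8.44 and 8.53 with doxycycline in clones 14, 6_1 and 6_2, and 8.76, 9.95 and 9.13 in control medium. Its difference was -0.91 (SE 0.22, limma, adjusted p = 0.0961), with -1.05 without clone 14 and -1.07 without clone 6_2 (adjusted p = 0.0153 and 0.0245), and -0.62 without clone 6_1, which did not pass. Its relative Myt1 read -0.48 (SE 0.18, limma, adjusted p = 0.172). Rfx3, a factor of ciliated and endocrine cells, read -0.74 (SE 0.27, limma, adjusted p = 0.173). Clone 6_2 went the other way, at 0.11 beside -0.82 and -1.50, and without it the estimate was -1.16 (limma, adjusted p = 0.0118), while without clone 6_1 it was -0.35.

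Genes known as targets of the glucocorticoid receptor gave a mixed picture. Of 15 genes 13 were tested, 8 higher and 5 lower with doxycycline, at a median of 0.08, and 0 passed (limma). At an unadjusted p under 0.05 there were 4 of the 13, beside 22.3% of all tested probes. Of all tested probes 51.7% were lower and 0.314% passed. Sgk1, a kinase that glucocorticoids induce, read 12.25, 12.33 and 12.25 with doxycycline in clones 14, 6_1 and 6_2, and 12.77, 12.96 and 12.92 in control medium. Its groups were well apart, at a difference of -0.61 (SE 0.16, limma, adjusted p = 0.111). The metallothionein Mt2 read 0.77 (SE 0.22, limma, adjusted p = 0.119), or 0.99 without clone 14 (adjusted p = 0.0244) and 0.46 without clone 6_1, and the repressor Bcl6 read 0.55 (SE 0.18, limma, adjusted p = 0.139).

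The other 10 targets, of which 6 were higher and 4 lower, lay between -0.20 and 0.43, and those named next were chosen after their values were seen. The clock gene Per1 read 0.43 (SE 0.17, limma, adjusted p = 0.188) and the stress gene Gadd45a 0.39 (SE 0.19, limma, adjusted p = 0.254). Both were higher with doxycycline in all 3 clones, as were 4032 of all 16902 tested probes, and Gadd45a came to 0.21 without clone 6_1. Closer to 0 were Fkbp5 at -0.02 (SE 0.17), the brightest Tsc22d3 probe at 0.08 (SE 0.18) and Dusp1 at -0.16 (SE 0.17), which without clone 6_1 came to -0.13, -0.07 and -0.04. The list of the receptor's chaperones also held the enzymes of its ligand, Hsd11b1 and Hsd11b2. These enzymes were above background on at most 2 and 0 arrays and were not tested. Of the list's 16 genes 12 were tested, all chaperones, 8 lower and 4 higher with doxycycline, with a median of -0.15. None passed (limma, with 0 at an unadjusted p under 0.05). Over all tested probes 51.7% were lower, 0.314% passed and 22.3% had an unadjusted p under 0.05 (limma). The genes of smallest p there were the heat shock proteins Hspa4 at -0.40 (SE 0.20) and Hspa8 at -0.36 (SE 0.18) and the cochaperone Ptges3 at -0.31 (SE 0.18), with adjusted p of 0.256 to 0.317 (limma). Without clone 6_1 Hspa4 came to -0.18 and Hspa8 to -0.20.

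**Figure D4:**
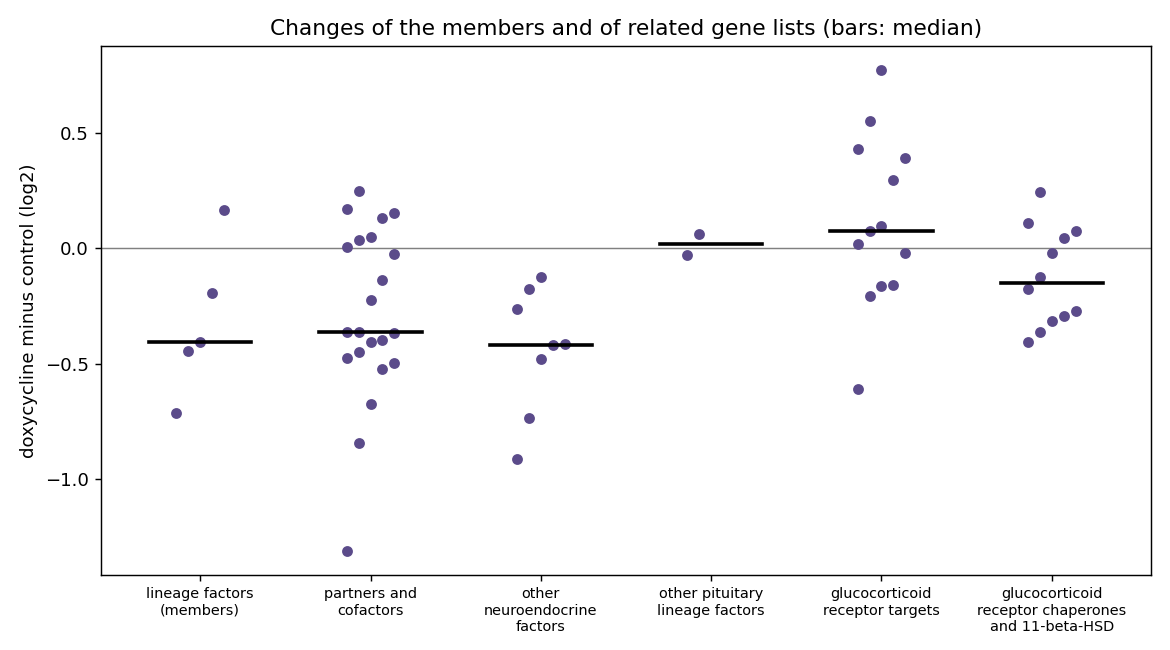
Doxycycline minus control on the log2 scale for the 5 tested members and for the tested genes of 5 related lists, 1 point per gene with the median as a bar; Fkbp5 stands in both receptor lists. The medians are -0.40 for the members, -0.36 for partners, -0.42 for other neuroendocrine factors, 0.02 for other lineages, 0.08 for receptor targets and -0.15 for receptor chaperones.

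Genes with the most similar profile were sought for the members that spanned over 1 log2 unit across the 6 arrays, which were Neurod4 (span 1.16) and Nr3c1 (span 1.24). Likeness was the root mean square difference of log2 values after centring each probe on its own mean. For Neurod4 the nearest named genes were the Notch regulator Numb at 0.06, the collagen lysyl hydroxylase Plod2 at 0.07 and the teneurin Tenm4 at 0.07, against a median of 0.50 over all tested probes. For Nr3c1 they were the developmental factor Eya1 at 0.06, 0610010F05Rik at 0.07 and the glycolipid anchor enzyme Piga at 0.08, against a median of 0.49. The Numb probe was above background on the 3 control arrays and on 0 doxycycline arrays, so its doxycycline values are background, and the other 5 neighbours were above background on all 6 arrays. The Nr3c1 group shares 1 high value on the control array of clone 6_1, and the Neurod4 group shares high values on the control arrays of clones 6_1 and 6_2. Neighbours were picked for the smallest distance over only 6 arrays. Distances under the median and the shared pattern follow from that choice, and likeness was not tested.

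**Figure D5:**
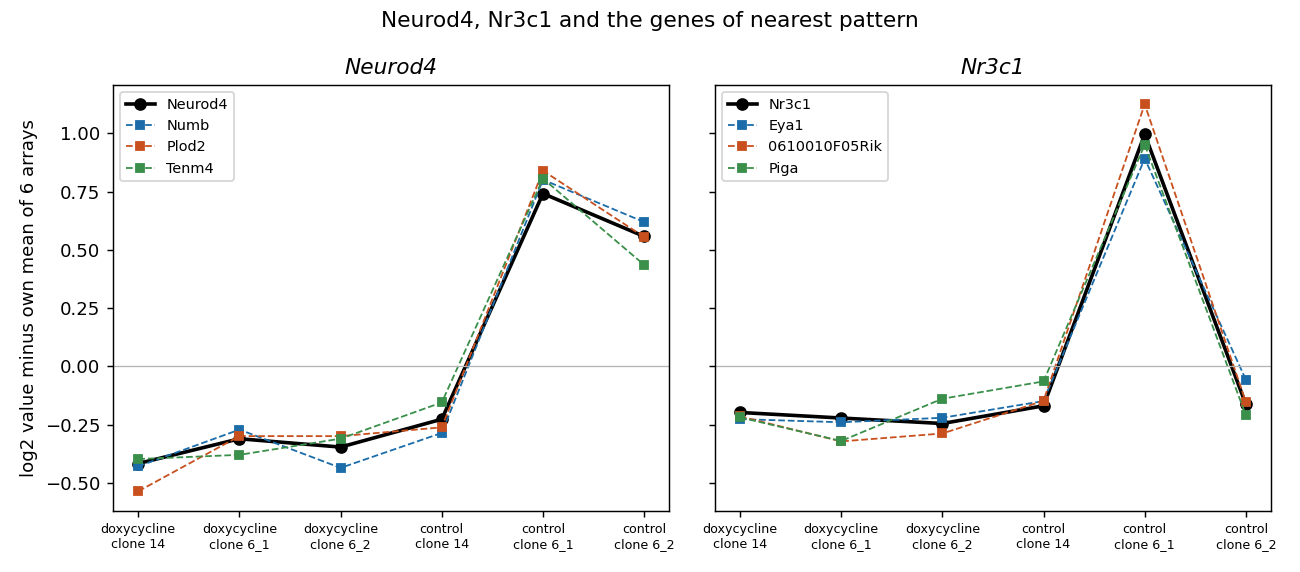
Profiles of Neurod4 and Nr3c1 (black) over the 6 arrays, each as log2 value minus its own mean, with the 3 genes nearest to each in colour; doxycycline arrays are on the left and control arrays on the right. Neurod4 and its neighbours are high on the control arrays of clones 6_1 and 6_2, and Nr3c1 and its neighbours on that of clone 6_1 alone.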

How the data were processed

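Total RNA was labelled with biotin and hybridised to Illumina MouseWG-6 v2.0 arrays, per the labels' protocols. The deposited series table holds 1 scanner signal per probe and array, an intensity on a linear scale without background subtraction, beside which stands, per the file headers, a p-value of detection. Detection columns carry no array name and were matched to the signal before them, since within an array p falls as signal rises. A second deposited table holds the authors' processed intensity values, also linear, with medians of 134.1 to 134.2 and the same rank order as the signals. How these were normalised the sources used here do not state. Per the submitters' processing notes the software was BeadStudio and GenomeStudio. In all, 0 columns belonged to other series.

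Signals were normalised by neqc of limma 3.58.1 in R 4.3.3 (background from the detection p-values, offset of 16, quantile, log2). Probes with a detection p under 0.01 on at least 3 of 6 arrays were tested, 16902 of 45281. Gene symbols came from the platform annotation, where 34885 probes had 1 symbol, 18 several and 10378 none, and checking them by Entrez number against GRCm38.p6 changed 0. The model, fitted by lmFit and eBayes, held medium and a clone block, on 2 residual plus 6.95 prior degrees of freedom, two-sided, with Benjamini-Hochberg adjustment over all tested probes and a threshold of 0.05. It was tested on simulated data with a common spread for all probes and with changes larger than any member's. That run does not cover differences of the members' size. Clone is a block because the labels put every clone in both media. Deviations from group means correlated at 0.538, -0.0211 and 0.139 between the arrays of clones 14, 6_1 and 6_2. The best correlation with a different clone was -0.301 for clone 14, 0.229 for 6_1 and 0.426 for 6_2. For 6_1 and 6_2 this was above the clone's own value, so their pairing rests on the labels alone. Changes by clone and fits without a clone depend on that pairing. For lists, the brightest tested probe stood for its gene.

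All 9 member probes are reported. Other genes named are the 3 of smallest p in each of 5 lists and the 3 of nearest profile to a member, with exceptions stated. The members and lists were chosen with earlier results of these data known. Probes of 10 listed genes were not analysed here. The number of arrays limits the precision. Alternatives are given in the closing section. Promoter windows are RefSeq's.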

Additional observations from a re-analysis of the deposited data

Results flagged for a closer look

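Among the genes described that were above background on all 6 arrays, 9 had doxycycline changes of opposite sign in different clones. Such mixed signs were common, as of 16902 tested probes 4169 were lower in all 3 clones and 4032 higher in all 3. For some of the 9 a sign rests on a small change, such as 0.01 for Rcor1 in clone 6_2. The difference between clones was not tested, since each clone has 1 array per medium. For Tbx19 the change was 0.33 in clone 6_1 against -0.04 in clone 14, 0.37 apart on the log2 scale. For Gata2 it was 0.46 in clone 6_1 against -0.33 in clone 6_2, 0.79 apart. For Rfx3 it was 0.11 in clone 6_2 against -1.50 in clone 6_1, 1.60 apart. The cofactor Rcor1 had 0.01 in clone 6_2 against -0.83 in clone 6_1, 0.85 apart, and Nr4a2 had 0.08 in clone 6_2 against -0.66 in clone 14, 0.74 apart. Among receptor targets the gap between the highest and the lowest clone was 0.45 for Dusp1, 0.54 for Tsc22d3 and 0.35 for Fkbp5. For Piga, the near neighbour of Nr3c1, the change was 0.07 in clone 6_2 against -1.27 in clone 6_1, 1.34 apart.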

How the results depend on the processing

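The count of members past the threshold was 0 in 12 of 13 alternatives to the doxycycline comparison, among them the fit with no replicate block, and ranged from 0 to 1 when a clone was left out, the 1 being Neurod4 without clone 14. No member changed sign in any of the 13, and the clone contrasts gave 0 members in all 8 alternatives run for each. Changes ranged from 0.09 to 0.27 for Tbx19, -0.31 to -0.09 for Neurod1, -0.98 to -0.45 for Neurod4, -0.65 to -0.06 for Nr3c1 and -0.49 to -0.26 for Insm1. Over all tested probes 53 passed, against 33 with no replicate block, 1 with no filter, 108 with an offset of 50, 165 with median scaling, 0 with an unmoderated paired statistic (1875 at an unadjusted p under 0.05), 144 with an intensity trend in the prior variance, and 717, 78 and 400 without clone 14, 6_1 and 6_2. Listed partner and target genes past the threshold were 0, and 1 (Fos) with a detection p under 0.01 on all 6 arrays, an offset of 50, median scaling, cyclic loess or the intensity trend, and 0 to 4 without a clone. The cause was not tested. Nr3c1 on all but 1 array, the doxycycline values of the brighter Neurod4 probe and all values of the second Neurod4 probe lie near or under the lowest values above background. There differences carry least.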

Other observations

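Fos and Egr1, from the list of partners, differed between clones. Egr1 read 7.47, 10.76 and 11.12 with doxycycline in clones 14, 6_1 and 6_2, and 7.68, 12.32 and 11.86 in control medium. It was 3.97 (SE 0.30) higher in clone 6_1 than in clone 14 and 3.91 (SE 0.30) higher in clone 6_2 than in clone 14 (limma, adjusted p = 0.00157 and 0.00142). Fos was 2.12 (SE 0.27) higher in each of clones 6_1 and 6_2 than in clone 14 (limma, adjusted p = 0.0266 and 0.0303). These were 2 of the 22 tested partner genes in each contrast, where 0.136% (clone 6_1 with clone 14) and 0.142% (clone 6_2 with clone 14) of all tested probes passed, and 0 were called between clones 6_2 and 6_1, where the Fos difference was 0.00 (SE 0.27) and that of Egr1 -0.05 (SE 0.30).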
